A study of Mus musculus with 31 samples.

Results

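The comparison set 7 thymic tumors of NDR1-/- mice against 4 untreated, normal thymi of NDR1-/- mice, over all genes that the array measured. Its members were chosen by sample title, and they are 11 of the 31 arrays of the series. Both groups were of strain C57BL/6 and carried the same NDR1-/- genotype, here called KO, so the controls lacked NDR1 as well. The tumors followed treatment with N-ethyl-N-nitrosourea (ENU, an alkylating mutagen) at 100 mg/kg and were taken when a tumor had developed or, at the latest, 9 months after ENU. The tumors came from 6 females and 1 male (tumor 02), and the thymi, which had no treatment, from 2 females (F_01 and F_02) and 2 males (M_01 and M_02). Wild-type (WT) and heterozygous (HT) tumors and thymi of the same series entered the same fit, where they share the estimate of spread, and are compared with KO at the end. The labels give neither the ages nor the part of the gene that the mutation removes. The titles speak of thymocytes and tumor cells and the tissue labels of thymus, so whether cells were isolated is not settled by the labels.

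NDR1 is a serine/threonine kinase of the NDR/LATS family, encoded by Stk38, that acts beside the Hippo pathway in the control of cell growth, the cell cycle and cell death. Thymocytes mature from double-negative progenitors, which depend on Notch signalling, through CD4+CD8+ double-positive cells, which recombine their T cell receptor alpha genes with the RAG proteins, to mature CD4+ or CD8+ T cells. ENU in mice is known to give T cell lymphomas that start in the thymus, and activated Notch1 is a common feature of such lymphomas.

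Each value below is a level or a difference of levels on the log2(intensity + 1) scale, from 1 probe set per gene. Every array had the same spread of intensities, with a median probe set at a level of 4.39 and a lowest value at a level of 2.34, so levels near or below 4.39 are at the dim end of an array. Differences are tumor minus thymus from a limma fit with sex as a covariate, each with its standard error (SE) and a p-value adjusted over all genes by the Benjamini-Hochberg method, called at adjusted p under 0.05. The labels do not say that each array was a separate animal, so the p-values measure the spread between these samples only. Since whole tissue or mixed cells were measured, fewer cells of a type and less RNA per cell cannot be told apart.

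Stk38 was read first, as a check of the genotype label. The KO thymi had Stk38 levels of 11.02, 11.34, 10.64 and 10.67, and the tumors labelled KO had 9.22, 8.73, 12.84, 12.77, 9.52, 13.08 and 11.47. Tumors 03, 04 and 06 were above every KO thymus, and tumors 01, 02 and 05 were below every one. On the probe set used for Stk38, the WT thymi ranged from 11.69 to 12.03 and the WT tumors from 11.38 to 13.04. There every KO thymus was below every WT thymus, while KO and WT tumors overlapped. Its tumor minus thymus difference was -0.12 (SE 0.629, adjusted p = 0.933), and that of the 2 other Stk38 probe sets was -1.38 and 0.42. On both of those other probe sets KO and WT thymi overlapped. The probe set with -1.38 averaged 9.096 ± 0.319 (SD, n = 4) in KO and 8.826 ± 0.313 (SD, n = 4) in WT thymi. The probe set with 0.42 was dim, at means of 4.205 in KO and 4.297 in WT thymi. Because the removed part of the gene is not known here, a probe set outside it would check nothing. Baiap3, a gene picked after its values were seen, had a level of 3.70 ± 0.192 (SD, n = 4) in KO and 7.42 ± 0.239 (SD, n = 4) in WT thymi. In the tumors Baiap3 averaged 4.31 ± 1.21 (SD, n = 7, highest 6.84) in KO and 8.09 ± 0.977 (SD, n = 5) in WT.

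The tumors varied far more than the thymi, and tumors 04 and 06 stood apart from the others. Over the 14017 genes tested, pairs of KO thymi correlated at r = 0.987 to 0.996 and pairs of KO tumors at 0.838 to 0.979, where the highest value was that of tumors 04 and 06. Tumor 03 was farther from the thymi than tumors 04 and 06, at r = 0.838 to 0.854 against 0.869 to 0.907. It is among the 5 tumors that remain without these 2, and it correlated with tumors 01, 02 and 05 at 0.851 to 0.870. The SD over arrays was larger in tumors for 91.8% of genes, with a median of 0.655 over tumors and 0.187 over thymi. A sign of RNA quality was uneven as well. Control probe sets at the 3' and the 5' end of actin and Gapdh gave a mean log2 ratio (3' over 5') of 0.350 ± 0.0371 (SD, n = 4) in the thymi and 1.41 ± 1.02 (SD, n = 7) in the tumors, with the highest ratio, 3.17, in tumor 07. The difference of 1.06 had p = 0.0515 in a 2-sided exact permutation test over 330 splits, whose smallest possible p is 0.00303. Counts of a list are also given without tumors 04 and 06 where that moved them, and calls that ended with this ratio added to the fit (the ratio covariate) are named. Tumors 04 and 06 were set apart by these same data, so differences and p-values without them are descriptions only.

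In all, 667 of 14017 genes (4.76%) differed between KO tumors and KO thymi, 295 higher in the tumors (2.1%) and 372 lower (2.65%); 2741 (19.6%) had an unadjusted p under 0.05. The median absolute difference of the called genes was 1.56. A difference of more than 2 log2 units was reached by 98 of the genes that rose and 126 of those that fell. The 7 tumors lay entirely above the 4 thymi for 604 genes (4.31%) and entirely below for 663 (4.73%), together 9.04%; among called genes this held for 241 of 295 rises and 304 of 372 falls. Without tumors 04 and 06, 1098 genes were called (7.83%), 581 higher (4.14%) and 517 lower (3.69%), and 594 of the 667 were among them. The median difference over all genes was 0.07. Centring each array on its median gene moved that median by -0.18 and the calls to 220 higher and 667 lower, so the split of directions depended on the scaling. The number of calls also depended on the arrays in the fit: the 11 KO arrays alone gave 204 calls (80 higher, 124 lower), and female arrays only, which leave 6 KO tumors and 2 KO thymi, gave 90 (22 higher, 68 lower). Array weights per tissue, which let the spread differ between tumors and thymi, gave 2969 calls (1528 higher, 1441 lower). Whether a gene passed or missed the threshold thus depended on the error model too. Of 77 called genes named here, 35 lost their call with KO arrays alone, each with its adjusted p from that fit in brackets beside the gene, and 53 with female arrays only. Calls that held in both included Sdc1, Dtx1, Dgkeos, Adam12, Slc6a19, Trav6-3, Cd8b1, Tox3, Hk2, Aldoa, Prss16, Tbata and the 6 neighbours on chromosome 4 from Tctex1d1 to Slc35d1.

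**Figure D1:**
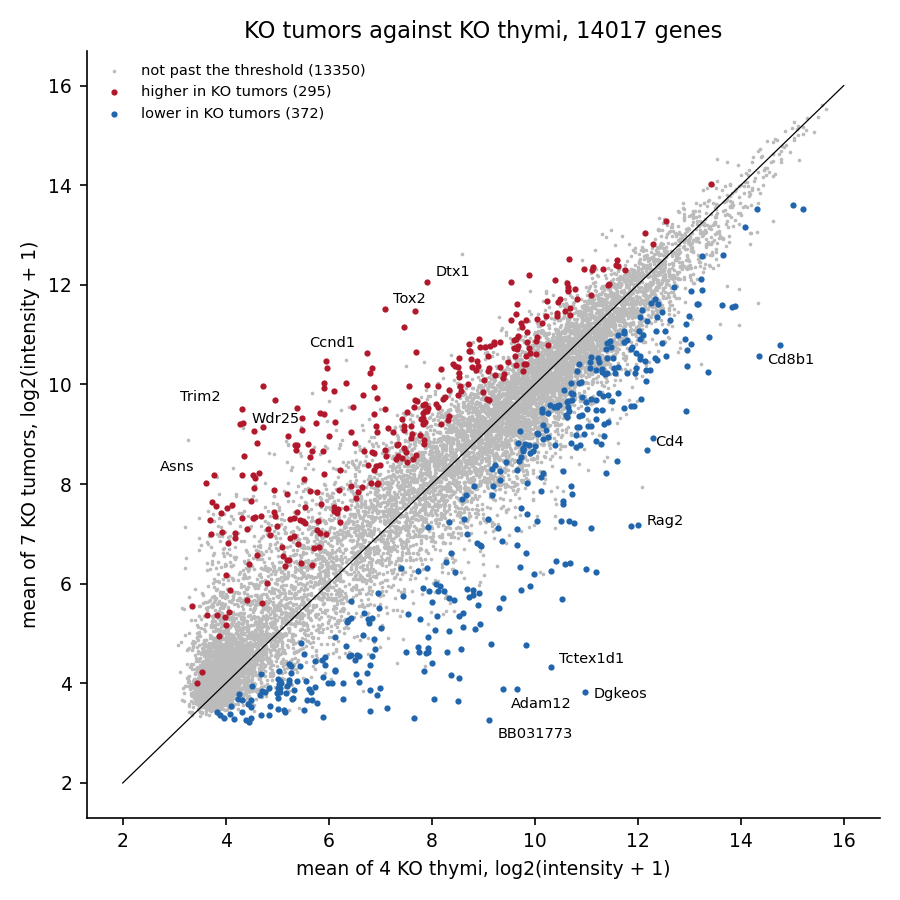
Mean level of each tested gene in 4 KO thymi (horizontal axis) and 7 KO tumors (vertical axis), both as log2(intensity + 1), with called rises and falls coloured and named genes labelled. Dgkeos and BB031773 lie at the lower right, high in thymi and dim in tumors, and Ccnd1 and Wdr25 lie far above the diagonal.

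Among genes whose tumors lay entirely above the thymi, the largest rises were led by Wdr25 and included a cell cycle driver, a Notch target and transcription factors. The 15 largest rises and 15 largest falls were picked by size among called genes whose groups did not overlap, so their size is a description. Wdr25 had levels of 4.55, 4.52, 4.42 and 3.85 in the thymi and, in tumors 01 to 07, 10.84, 10.80, 9.99, 4.71, 11.16, 5.15 and 11.93. Tumors 04 and 06 were barely above the thymi, and the other 5 were more than 5 units above. The fitted difference was 5.14 (SE 1.22, adjusted p = 0.0122), and 6.71 without tumors 04 and 06. Ccnd1, which encodes cyclin D1 and drives cells from G1 into S phase, had levels of 6.41, 6.38, 5.36 and 5.60 in the thymi and 8.21 to 12.16 (median 10.87) in the tumors. Every tumor was above every thymus, the Ccnd1 difference was 4.51 (SE 0.941, adjusted p = 0.00405), and its 2 other probe sets gave 4.39 and 5.33. Among transcription regulators, Tox2, an HMG-box factor, rose by 4.55 (SE 0.757, adjusted p = 0.000382) from 6.95 to 7.30 in thymi to 9.99 to 13.06 in tumors. Jdp2, a bZIP protein that pairs with JUN, rose by 4.52 (SE 0.782, adjusted p = 0.000606), and the homeobox gene Pbx3 by 4.21 (SE 1.01, adjusted p = 0.0126). Pbx3 lost its call without thymus F_01 or F_02, with an adjusted p of up to 0.0525, and Wdr25 with KO arrays alone (0.18).

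Sdc1, the heparan sulfate proteoglycan syndecan-1, had the smallest adjusted p of the 15: its level was 6.81, 6.22, 5.14 and 5.68 in the thymi and 8.76 to 11.30 (median 10.85) in the tumors, a difference of 4.27 (SE 0.506, adjusted p = 4e-06). Trim2, a ubiquitin ligase of the TRIM family, rose by 4.95 (SE 1.12, adjusted p = 0.00836), with 5 other probe sets at 0.60 to 2.90. Prag1 rose by 4.31 and the endothelial lipase gene Lipg by 3.98. Naip5, a sensor of bacterial flagellin, rose by 4.75, and H2-Q10, a class I histocompatibility gene, by 4.46; both have near-identical relatives, so their probe sets may read more than 1 gene. Cyb561, a cytochrome b561 protein, had levels of 3.82, 3.86, 3.82 and 3.43 in the thymi but 4.22 and 4.10 in tumors 04 and 06, against 7.61 to 10.10 in the other 5. Its difference of 4.27 (adjusted p = 0.0324) lost its call with that 3'/5' ratio in the model (0.0700) and without any 1 thymus or any of tumors 02, 03 and 07 (adjusted p of up to 0.0944). Col1a2, a type I collagen chain made by fibroblasts, rose by 4.33 (adjusted p = 0.0237), from 3.34 to 3.88 in thymi to between 5.10 and 12.54 in tumors. That call ended with the ratio covariate (0.0503), with the mean of all probe sets (0.0734), and without F_01, F_02, M_02 or tumor 02 (adjusted p of up to 0.0991). With KO arrays alone, Lipg (0.145), Cyb561 (0.173) and Col1a2 (0.213) lost their calls.

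Several of the largest falls left the gene at the dim end of every tumor array. Dgkeos, an RNA gene named for its place on the strand opposite Dgke, had levels of 10.80, 10.87, 11.24 and 11.02 in the thymi. In the tumors Dgkeos ranged from 3.41 to 3.90, apart from 5.07 in tumor 05. The difference of -7.12 (SE 0.276, adjusted p = 2.69e-16) was the largest called in either direction, and a second probe set gave -6.29. Dgke itself, looked up because it shares the locus, fell by 2.89 (SE 0.69, adjusted p = 0.0125), from 10.46 to 10.93 in thymi to between 5.91 and 9.62 in tumors; without F_01 or F_02 its adjusted p reached 0.0644, and with KO arrays alone it was 0.155. The labelling named for these arrays makes double-stranded targets, so signal from the opposed strands cannot be told apart.

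Bex1, an X-linked signalling adaptor gene, measured 9.32 to 9.84 in the thymi and 3.20 to 5.61 (median 3.58) in the tumors, a difference of -5.96 (SE 1.4, adjusted p = 0.0115). Slc6a19, a transporter of neutral amino acids, fell by 5.26 (SE 0.644, adjusted p = 6.92e-06), and the metalloprotease gene Adam12 by 5.09 (SE 0.258, adjusted p = 1.04e-13). Aqp11, an aquaporin, fell by 4.53 and Chrna9, a nicotinic acetylcholine receptor subunit, by 4.37. Chrna9 and Aqp11 were highest in tumor 05, at 9.31 and 11.21, and lowest in tumor 04, at 3.86 and 3.18. A930003A15Rik fell by 4.70 (SE 0.916, adjusted p = 0.00219), with tumors 01 and 05 at 8.26 and 9.30 and the other 5 between 3.88 and 5.46. Trav6-3, a variable segment of the T cell receptor alpha chain, went from 8.66 to 9.68 in the thymi to 3.60 to 6.09 in the tumors, a difference of -4.31 (SE 0.542, adjusted p = 1.02e-05). Its segment family holds near-identical copies, so which copies were read is uncertain. A930003A15Rik (0.0742), Chrna9 (0.108) and Aqp11 (0.217) lost their calls in the fit of KO arrays alone.

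For 5 genes, all 7 tumors were below the array median while all 4 thymi were at least 4-fold above it: Adam12, BB031773, Chl1, Igf2bp3 and Macrod2. The last 3 were looked up after their values were seen. No gene showed the reverse pattern (0 of 14017). Chl1, a neural cell adhesion gene, had levels of 7.36, 7.01, 8.11 and 8.17 in the thymi and 3.01 to 3.56 in the tumors, a difference of -4.12 (SE 0.193, adjusted p = 2e-14), though its other 2 probe sets gave -1.13 and 0.13. Macrod2, a macrodomain hydrolase gene, fell by 3.58 and Igf2bp3, an RNA-binding protein gene of fetal tissues, by 3.19. Igf2bp3 lost its call without F_01 or F_02 (adjusted p of up to 0.0705).

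**Figure D2:**
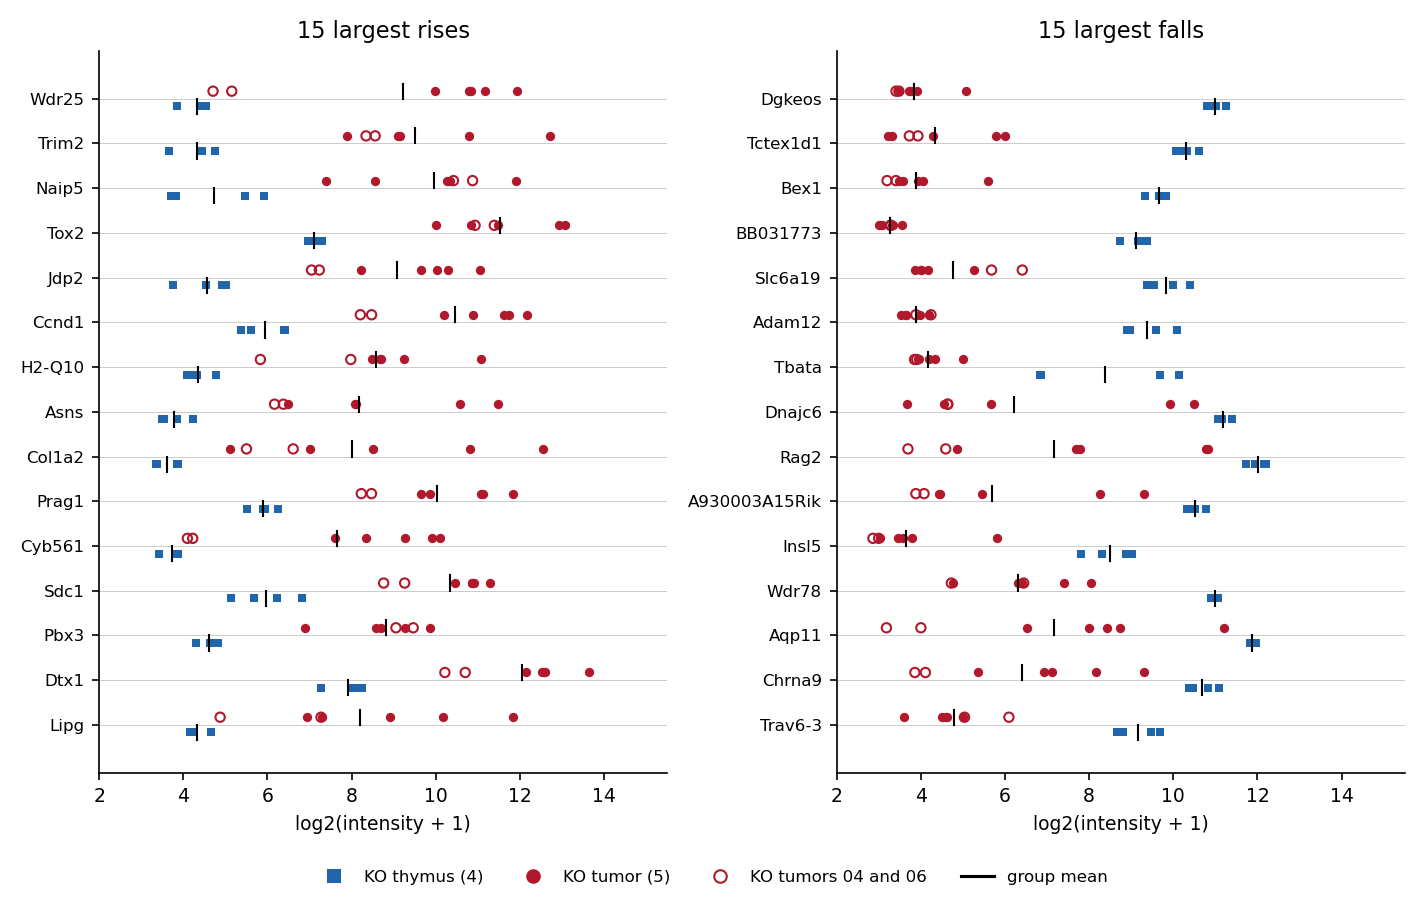
Level, as log2(intensity + 1), of the 15 largest rises (left) and the 15 largest falls (right) on each KO thymus and KO tumor array, with tumors 04 and 06 as open circles and short lines for group means. The genes were picked for groups that do not overlap, so tumors lie above thymi in all rises and below them in all falls. In the rises, tumors 04 and 06 often lie nearest the thymi, as for Wdr25 (4.71 and 5.15) and Cyb561 (4.22 and 4.10).

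Of the 15 largest falls, 5 were neighbours on chromosome 4: Dnajc6, Tctex1d1, BB031773, Insl5 and Wdr78. In the RefSeq gene order of assembly GRCm38.p6, 10 tested genes (of 29 annotated) lay from Dnajc6 to Slc35d1, and 7 of them were lower in tumors and 0 higher. Tctex1d1, which encodes a dynein light chain-like protein, had levels of 10.33, 10.06, 10.61 and 10.25 in the thymi and 3.23 to 5.99 in the tumors, a difference of -5.98 (SE 0.464, adjusted p = 1.18e-09). BB031773 measured 9.15, 8.74, 9.20 and 9.38 in the thymi and 3.02 to 3.56 in the tumors, with a difference of -5.77 (SE 0.198, adjusted p = 2.47e-17). Tumors and thymi were widely separated for both genes, and tumors 04 and 06 lay among the other tumors.

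The next 4 tested genes fell too. Insl5, a peptide hormone of the insulin and relaxin family, had levels of 7.80, 8.32, 9.02 and 8.87 in the thymi and 2.86 to 5.81 (median 3.45) in the tumors, a difference of -4.66 (SE 0.411, adjusted p = 1.57e-08). Wdr78, a WD-repeat dynein gene, had 10.90 to 11.06 in the thymi and 4.73 to 8.04 in the tumors, a difference of -4.63 (SE 0.659, adjusted p = 6.12e-05). Mier1, a transcriptional repressor, and Slc35d1, a nucleotide sugar transporter, were looked up because they continue the row. Mier1 fell by 1.95 (SE 0.256, adjusted p = 1.83e-05) and Slc35d1 by 2.87 (SE 0.395, adjusted p = 3.64e-05), and for both every tumor was below every thymus.

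Dnajc6, which encodes auxilin, a co-chaperone of clathrin uncoating, began the stretch but was less even. Its thymus levels were 11.16, 11.06, 11.39 and 11.12, tumors 01 and 05 were close below at 10.50 and 9.91, and the other 5 tumors were between 3.68 and 5.66. The Dnajc6 difference was -4.90 (SE 1.31, adjusted p = 0.0273), and the call ended without tumors 04 and 06 (0.0566), with the ratio covariate (0.0647), and without any 1 thymus, tumor 02 or tumor 07 (adjusted p of up to 0.0982), and with KO arrays alone (0.118). Between Dnajc6 and Tctex1d1, Leprot, Pde4b and Sgip1 did not pass the test, with differences of 0.58, -0.70 and 0.59.

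The row from Tctex1d1 to Slc35d1 was the longest of its kind in the comparison. Among 13986 genes that could be placed in order, called genes of 1 direction stood in 578 runs of 1 gene, 37 runs of 2, 3 runs of 3 and this 1 run of 6. On chromosome 4 as a whole, 28 of 848 tested genes were lower. A run of 3 on chromosome 6 held Cd8b1, Cd8a and Rmnd5a, a ubiquitin ligase subunit gene that fell by 2.24 (SE 0.308, adjusted p = 3.64e-05). The same 6 chromosome 4 genes were called lower in WT and in HT tumors against their own thymi, for example Tctex1d1 by -5.46 and -5.56 and Mier1 by -1.77 and -1.55.

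**Figure D3:**
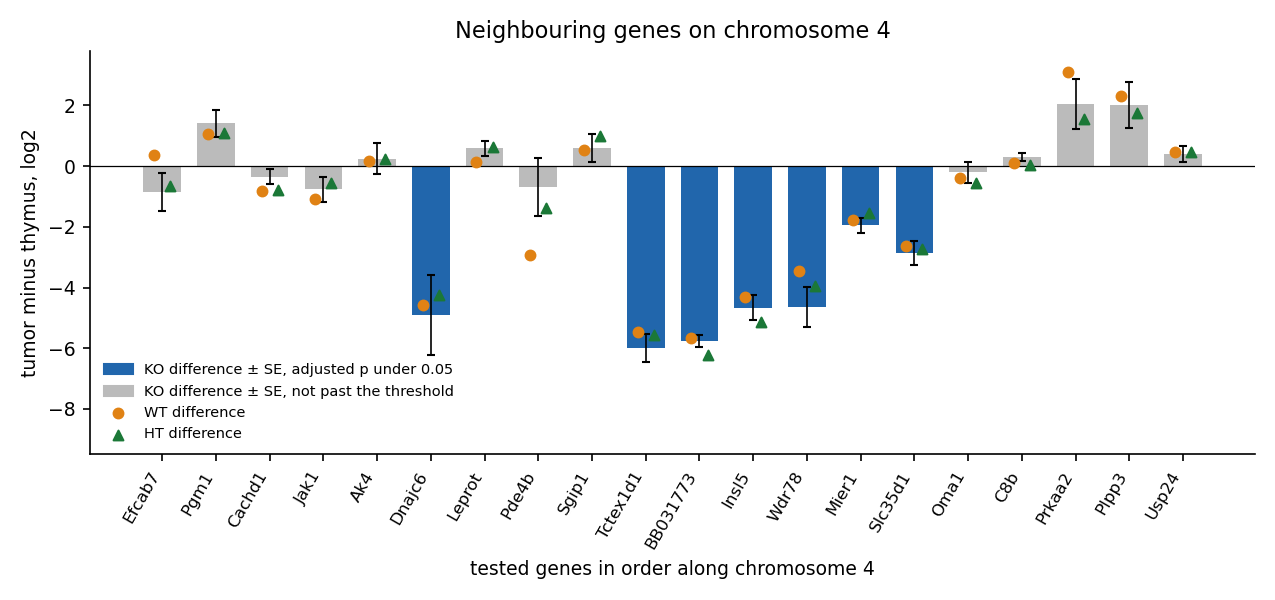
Tumor minus thymus difference in log2 units for tested genes of chromosome 4, in their order around the stretch from Dnajc6 to Slc35d1: bars with SE for KO (blue where called), circles for WT and triangles for HT. In KO the 6 neighbours from Tctex1d1 to Slc35d1 all lie below 0, from -5.98 to -1.95, and the plotted genes outside the stretch lie between -0.86 and 2.04.

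Genes of double-positive thymocytes were lower in the tumors. Over all genes the median was 0.07, 2.65% fell and 2.1% rose. Without tumors 04 and 06, 3.69% fell and 4.14% rose, and list counts are to be read beside these shares. Of the 13 tested members of the double-positive list, 7 fell and 0 rose, with a median difference of -2.36. The same count of 7 held without tumors 04 and 06. The mean level of the list was 13.08 to 13.16 in the thymi, 10.68 to 11.83 in 5 tumors, and 8.54 and 9.41 in tumors 04 and 06. Cd8b1, which encodes the beta chain of the CD8 coreceptor, measured 14.39, 14.33, 14.38 and 14.30 in the thymi and 8.95 to 12.83 (median 10.41) in the tumors, a difference of -3.71 (SE 0.571, adjusted p = 0.000161). Cd8a, the alpha chain, fell by 2.36 (SE 0.58, adjusted p = 0.0149). Cd4, the other coreceptor, had levels of 12.19, 12.23, 12.19 and 12.11 in the thymi and 10.35, 6.47, 7.89, 10.61, 9.59, 9.52 and 6.40 in tumors 01 to 07, a difference of -3.68 (SE 0.672, adjusted p = 0.00113). No tumor reached the thymus levels of Cd4 or Cd8b1. The adjusted p of Cd4 was 0.0621 with KO arrays alone. Tumor 07 was near the lowest for both, whereas tumor 01 was the lowest for Cd8b1 and the next to highest for Cd4.

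The recombination genes split the tumors. Rag2 had levels of 11.72, 11.94, 12.15 and 12.21 in the thymi and 10.83, 4.85, 7.69, 3.70, 10.78, 4.59 and 7.79 in tumors 01 to 07, a difference of -4.83 (SE 1.09, adjusted p = 0.00837). Rag1 had 14.62 to 14.90 in the thymi and 14.37, 10.64, 11.49, 4.57, 13.94, 8.36 and 12.20 in the tumors, a difference of -3.91 (SE 1.14, adjusted p = 0.0446). For both genes, tumors 01 and 05 lay close under the thymi, and tumor 04 was the lowest. Satb1, a chromatin organiser of thymocytes, fell by 1.42 (SE 0.275, adjusted p = 0.00198), and Bcl2l1, the survival gene that encodes BCL-XL, by 2.45 (SE 0.386, adjusted p = 0.000203). Ccr9, the chemokine receptor for CCL25, was below every thymus in all 7 tumors with a difference of -2.52 that missed the threshold (adjusted p = 0.0539), and Cd24a had a difference of -0.13 (adjusted p = 0.787). Rag1 was called in 4 of 11 fits that left out 1 array; it lost the call with the ratio covariate (0.102) and without any 1 thymus, tumor 02, 03 or 06 (adjusted p of up to 0.156), as did Cd8a without F_01 or F_02 (up to 0.0661). With KO arrays alone, Satb1 (0.0621), Rag2 (0.155) and Rag1 (0.367) lost their calls.

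The T cell receptor machinery was lower for 3 of its 17 tested members (2.65% over all genes), with a median of -0.71 and 0 higher. In this list 6 were lower without tumors 04 and 06, and 8 after centring. Cd247, the CD3 zeta chain, fell by 1.66 (SE 0.382, adjusted p = 0.00986), from 12.91 to 12.99 in the thymi to 9.85 to 11.79 in the tumors. Cd28, the costimulatory receptor, fell by 2.16 (SE 0.532, adjusted p = 0.0157), and Lcp2, the adaptor SLP-76, by 1.32 (SE 0.367, adjusted p = 0.0341). Cd3d and Ptprc (CD45) had differences of -1.07 and -0.32 and did not pass. Without single arrays Cd247 lost its call for F_01 (0.0517), Cd28 for F_01 and F_02 (up to 0.0756), and Lcp2 for any thymus, tumor 02 or tumor 03 (up to 0.121); Lcp2 also lost it with the ratio covariate (0.0818) and with the mean of all probe sets (0.136). Cd247 (0.0777) and Lcp2 (0.0621) were not called in the fit of KO arrays alone.

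Defining markers of T cells were present in the tumors. Over 9 tested T lineage markers, none of which was below the array median on all tumors, the mean level was 13.29 to 13.38 in the thymi and 11.77 to 12.63 in the tumors, and 1 marker (Cd247) was called lower. Without tumors 04 and 06, 3 were lower (Cd247, Ptprc and Cd5), and after centring 5 were (Cd3e, Cd3d, Cd3g, Cd247 and Cd5). Thy1 levels were 12.54 to 14.57 in the tumors and 14.08 to 14.30 in the thymi, with a difference of -0.60 (adjusted p = 0.304). Of 19 T lineage transcription factors, 2 rose and 1 fell (2.1% and 2.65% over all genes), with a median of -0.27. Runx3, a factor of the CD8 lineage, rose by 1.49 (SE 0.298, adjusted p = 0.00276). Tox3 had levels of 7.55, 7.50, 8.16 and 9.01 in the thymi and 3.22 to 4.53 in the tumors, a fall of 4.31 (SE 0.304, adjusted p = 2.05e-10), while its relative Tox2 rose. Myb and Bcl11b, which sustain T cell progenitors and T cell identity, had differences of -1.16 and -0.64 and did not pass; Myb was at 11.36 and 10.60 in tumors 04 and 06 and at 13.64 to 14.22 in the others.

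Among 11 genes of double-negative and earlier progenitors, 1 rose and 0 fell, with a median of 1.57. Without tumors 04 and 06, 0 were called and the median was 0.42. The mean level of the list was 5.36 to 6.00 in the thymi, 8.56 and 8.49 in tumors 04 and 06, and 5.72 to 7.14 in the other 5. Lyl1, a bHLH oncogene of T cell leukemia, had levels of 5.38, 4.83, 4.57 and 4.11 in the thymi and 8.72, 4.97, 11.20, 10.99, 6.70, 11.99 and 9.48 in tumors 01 to 07, a difference of 4.06 (SE 1.09, adjusted p = 0.0282). Tumor 02 stayed within the range of the thymi. The Lyl1 call ended without tumors 04 and 06 (0.0666), with the ratio covariate (0.0704), without any thymus or tumor 03 (up to 0.125), and with KO arrays alone (0.208). Ptcra, which encodes the pre-T cell receptor alpha chain, was split: tumors 01 and 05 were at 11.92 and 12.03, tumors 04 and 06 at 3.73 and 4.84, and the thymi at 8.95 to 9.52, with a difference of -0.38 (adjusted p = 0.899). Cd44, an adhesion receptor of progenitors and activated T cells, was higher than every thymus in all 7 tumors, with a difference of 1.71 that missed the threshold (adjusted p = 0.141). Of the 12 tested T cell leukemia oncogenes, 1 was called with all 7 tumors (Lyl1), 1 without tumors 04 and 06 (Myc), 0 with the ratio covariate, and 3 after centring (Lyl1 higher, Hoxa9 and Erg lower). Hoxa9 and Erg were below the array median in all tumors.

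In 15 tested genes of mature T cells and egress, 0 were called with all 7 tumors, with a median of -0.50. Their mean level was 10.16 to 10.42 in the thymi, 12.27 and 12.03 in tumors 04 and 06, and 7.63 to 9.73 in the other 5. Without tumors 04 and 06 the median was -1.51 and 2 were lower, Gimap6, a small GTPase gene of lymphocytes, and Ms4a6b.

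Notch signalling works through receptors that ligands trigger for cleavage, fringe enzymes that modify them, RBPJ with its MAML coactivators, and targets such as Hes1, Heyl, Dtx1 and Nrarp. Of 28 tested members, 3 rose and 1 fell (2.1% and 2.65% over all genes), with a median of 0.42. Dtx1, a ubiquitin ligase and Notch target, had levels of 8.24, 8.14, 7.98 and 7.28 in the thymi and 12.60, 12.58, 12.52, 10.21, 12.15, 10.70 and 13.64 in tumors 01 to 07. All tumors were above all thymi, with tumors 04 and 06 the lowest of them, and the difference was 4.17 (SE 0.618, adjusted p = 0.000101); a second Dtx1 probe set gave -0.26. Nrarp, which encodes a feedback inhibitor of Notch, rose by 1.90 (SE 0.517, adjusted p = 0.0299), and tumor 06, at 5.80, lay within the thymus range of 5.59 to 6.07. Mfng, the manic fringe glycosyltransferase, rose by 1.49 (SE 0.287, adjusted p = 0.00199), with the 7 tumors above the 4 thymi. Maml1, a coactivator, fell by 0.68 (SE 0.191, adjusted p = 0.036).

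The receptor gene was above every thymus in 5 tumors and within the thymus range in tumors 04 and 06. Notch1 had levels of 11.60, 11.58, 11.08 and 10.95 in the thymi, 13.35 to 14.08 in tumors 01, 02, 03, 05 and 07, and 11.26 and 11.08 in tumors 04 and 06. Its difference was 1.71 (SE 0.564, adjusted p = 0.0812) with all 7 tumors and 2.40 (adjusted p = 0.00117) with 5. Hes1 and Heyl, looked up after their values were seen, had differences of 2.87 (adjusted p = 0.083) and 3.33 (adjusted p = 0.106), and 3.65 (0.0138) and 4.47 (0.0108) without tumors 04 and 06. With 5 tumors, 6 members of the list rose and 1 fell, while the list median was 0.24, against 0.42 with 7. The ratio covariate gave 3 rises (Mfng, Hes1 and Dtx1), 0 falls and a median of 0.11. Heyl was below the array median in every thymus. Adam10, the protease that first cleaves the receptor, had a difference of -0.07. Nrarp and Maml1 lost their calls with the ratio covariate (0.0746 and 0.0604) and without any 1 thymus, tumor 02 or 07 (tumor 03 too for Nrarp; adjusted p of up to 0.115 and 0.126). With KO arrays alone, Mfng (0.0769), Maml1 (0.136) and Nrarp (0.241) were not called.

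**Figure D4:**
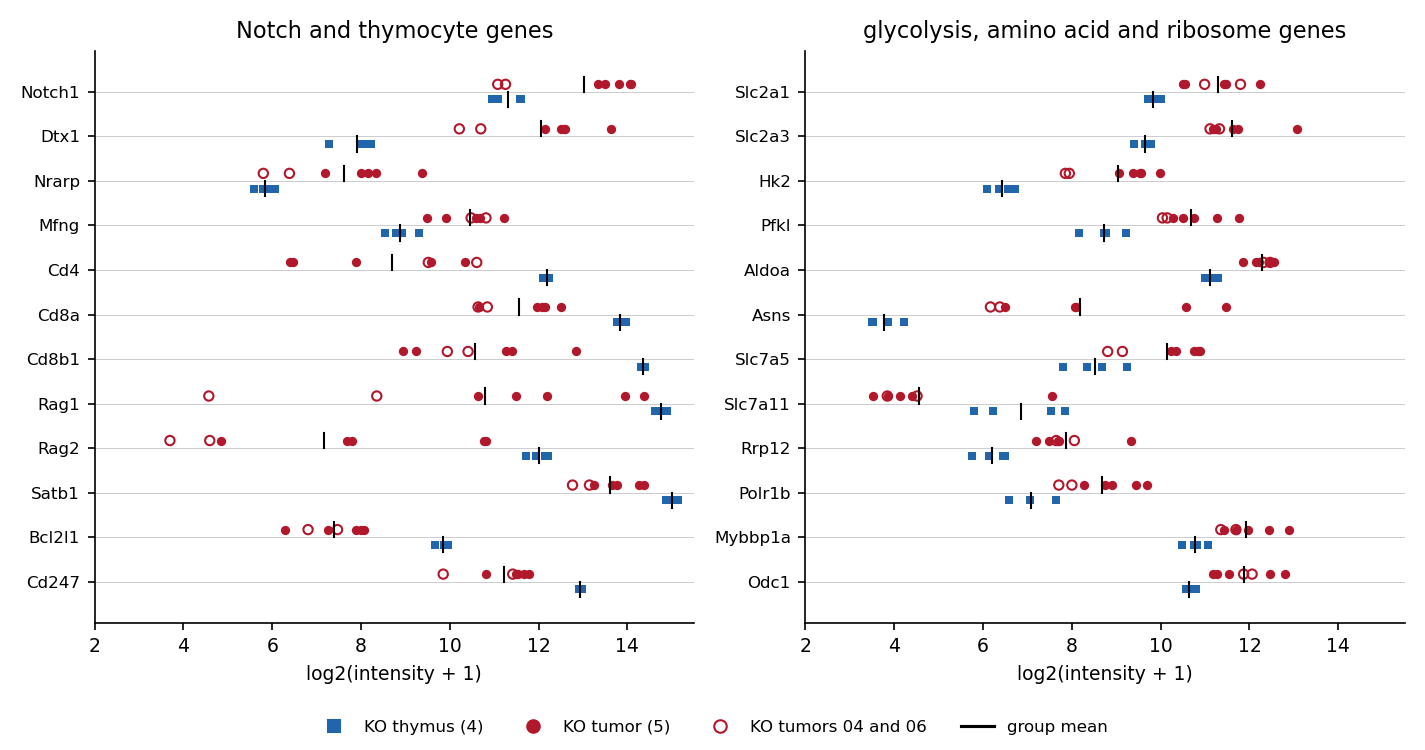
Level, as log2(intensity + 1), of named Notch and thymocyte genes (left) and of named glycolysis, amino acid and ribosome genes (right) on each KO thymus and KO tumor array, with tumors 04 and 06 as open circles and short lines for group means. Notch1 in tumors 04 and 06 (11.26 and 11.08) overlaps the thymi, Cd4 and Cd8b1 lie below the thymi in all 7 tumors, and Hk2 and Aldoa lie above them in all 7.

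Of 18 tested genes of glucose uptake and glycolysis, 5 rose and 0 fell (2.1% and 2.65% over all genes), with a median of 0.48. Without tumors 04 and 06, 7 rose (4.14% over all genes). Hk2, the hexokinase that commits glucose to glycolysis, had levels of 6.71, 6.55, 6.37 and 6.08 in the thymi and 7.85 to 9.996 (median 9.37) in the tumors. Every tumor exceeded every thymus, tumors 04 and 06 least, and the difference was 2.59 (SE 0.308, adjusted p = 4.04e-06). The glucose transporter genes Slc2a3 (GLUT3) and Slc2a1 (GLUT1) rose by 2.04 (SE 0.472, adjusted p = 0.0104) and 1.42 (SE 0.333, adjusted p = 0.0112). Pfkl, a phosphofructokinase, rose by 1.85 (SE 0.385, adjusted p = 0.00405), and Aldoa, an aldolase, by 1.15 (SE 0.187, adjusted p = 0.000289), with all 7 tumors above all 4 thymi for both. The abundant later enzymes Ldha and Pgk1 had differences of 0.17 (adjusted p = 0.716) and -0.09 (adjusted p = 0.9). Slc2a1 lost its call without F_01 or F_02 (up to 0.0611) and with KO arrays alone (0.121), and Slc2a3 with the mean of all its probe sets (0.21).

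In amino acid supply, 2 of 17 members rose and 1 fell (2.1% and 2.65% over all genes), with a median of 0.85. Without tumors 04 and 06, 6 rose and 1 fell (4.14% and 3.69% over all genes). Asns, asparagine synthetase, had levels of 4.22, 3.85, 3.50 and 3.53 in the thymi and 8.10, 10.57, 8.08, 6.38, 11.47, 6.17 and 6.49 in tumors 01 to 07, a difference of 4.44 (SE 0.798, adjusted p = 0.000936). Tumors 02 and 05 were highest, and a second Asns probe set gave 3.93. Slc7a5, a carrier of large neutral amino acids, rose by 1.47 (SE 0.421, adjusted p = 0.0404). Slc7a11, the cystine and glutamate exchanger, went the other way: it measured 6.22 and 5.81 in the female and 7.84 and 7.52 in the male thymi, 7.55 in tumor 05 and 3.53 to 4.51 in the other 6 tumors, a difference of -2.07 (SE 0.531, adjusted p = 0.0209). Phgdh and Psat1, enzymes of serine synthesis, had differences of 0.73 (adjusted p = 0.314) and 0.75 (adjusted p = 0.304). Slc7a5 lost its call after centring (0.0712) and without any thymus or tumors 02, 03, 05 or 07 (up to 0.146), and Slc7a11 without F_01, M_01, M_02 or tumor 02 (up to 0.0761). Asns (0.0727), Slc7a5 (0.208) and Slc7a11 (0.286) were not called in the fit of KO arrays alone.

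Ribosome production and MYC target genes were higher for 4 of 18 members and lower for 0 (2.1% and 2.65% over all genes). Their median was 0.76, against 0.07 over all genes. Of their 18 differences 17 were above 0, a share not counted over all genes. Rrp12, which helps to export ribosomal subunits, rose by 1.65 (SE 0.401, adjusted p = 0.014), from 5.76 to 6.49 in the thymi to 7.19 to 9.34 in the tumors. Polr1b, a subunit of RNA polymerase I, rose by 1.5 (SE 0.397, adjusted p = 0.0253), Odc1, the first enzyme of polyamine synthesis, by 1.06 (SE 0.315, adjusted p = 0.0491), and Mybbp1a, a nucleolar protein, by 1.04 (SE 0.304, adjusted p = 0.0444). All 7 tumors were above all 4 thymi for each of these 4 genes, but the abundant nucleolar genes Ncl and Npm1 had differences of 0.00 and 0.05. Over the list, all 7 tumors were above all 4 thymi for 5 members and below for 1 (4.31% and 4.73% over all genes). The count was 8 without tumors 04 and 06, 2 higher and 1 lower (Wdr12) after centring, and 1 (Rrp12) with the ratio covariate. Of the others, Odc1 was called in 2, Mybbp1a in 4 and Polr1b in 7 of 11 fits that left out 1 array, with adjusted p of up to 0.211, 0.166 and 0.115: each lost its call without F_02, M_01, M_02 or tumor 02, Odc1 and Mybbp1a also without F_01 or tumor 03, Mybbp1a without tumor 07, and Odc1 without tumor 04, 05 or 06. Rrp12 lost its call without F_02 or M_02 (up to 0.0708). None of the 4 was called with KO arrays alone (Rrp12 0.108, Polr1b 0.149, Odc1 0.171 and Mybbp1a 0.176).

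Myc itself had levels of 10.42, 10.15, 9.65 and 9.61 in the thymi and 11.20, 12.14, 10.74, 9.37, 11.52, 8.97 and 11.30 in tumors 01 to 07. Tumors 04 and 06 were below every thymus and the other 5 above every one; the difference was 0.78 (adjusted p = 0.324) with 7 tumors and 1.37 (adjusted p = 0.00655) with 5. In the list of MYC and MAX partners 1 of 12 was called, Mlx, which dimerises with the glucose-sensing MondoA and ChREBP proteins and fell by 0.93 (SE 0.206, adjusted p = 0.00686, and 0.184 with KO arrays alone). Myc was called as well without tumors 04 and 06. Genes of cell division did not pass the test: 0 of 23 DNA replication genes (median -0.35) and 0 of 22 mitosis genes (median -0.96) were called. All 22 mitosis differences were below 0, as were 18 of the 23 for replication, shares not counted over all genes. After centring, 1 mitosis gene was lower (Ccnb2). Mean mitosis levels were 11.27 to 11.49 in the thymi, 10.53 to 11.46 in 5 tumors, and 9.19 and 8.17 in tumors 04 and 06. Among the abundant members, Mki67 had a difference of -0.30, Mcm7 of -0.34, Top2a of -0.89 and Pcna of -1.25 (adjusted p = 0.635, 0.559, 0.214 and 0.0864).

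Of 15 p53 target genes, 1 rose and 3 fell (2.1% and 2.65% over all genes), with a median of 0.21 (0.03 after centring). The count was 2 higher and 4 lower without tumors 04 and 06, with Phlda3 added to the rises and Sesn1 to the falls. Aen, a nuclease induced by p53 in apoptosis, had levels of 8.63, 8.19, 8.46 and 8.05 in the thymi and 8.95 to 11.26 (median 9.81) in the tumors, a rise of 1.57 (SE 0.339, adjusted p = 0.00544). Fas, the death receptor, had levels of 10.84, 10.98, 11.42 and 11.55 in the thymi and 8.59 to 9.68 (median 9.32) in the tumors, a fall of 1.85 (SE 0.379, adjusted p = 0.00359). Groups were separate for both genes. Btg2, an antiproliferative gene, fell by 1.37 (SE 0.339, adjusted p = 0.0161) and Trp53inp1, a p53 cofactor, by 0.75 (SE 0.172, adjusted p = 0.0093). Ccng1 and Sesn1 had differences of 0.21 and -0.56 and did not pass with all 7 tumors. Btg2 lost its call without F_01 or F_02 (up to 0.0931), and Trp53inp1 without F_02 (0.062) and with the mean of all probe sets (0.0565). With KO arrays alone, Trp53inp1 (0.133) and Aen (0.154) were not called.

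Among regulators of apoptosis, 1 of 4 tested survival genes of the BCL2 family fell, Bcl2l1 (difference -2.45), and 0 of 9 pro-apoptotic members were called. Bid, a BH3-only activator, had a difference of 0.73 (adjusted p = 0.0728), and 0.92 (adjusted p = 0.0112) without tumors 04 and 06. Bcl2l11, which encodes BIM, had levels of 11.95, 12.16, 11.92 and 11.94 in the thymi and 10.90 to 13.10 in the tumors, a difference of 0.02 (SE 0.437, adjusted p = 0.987), while its other 4 probe sets gave -1.92 to -0.28. Of the 21 tested NDR and Hippo pathway genes, 0 were called, with a median of 0.09 (-0.09 after centring), and 1 was lower without tumors 04 and 06 (Lats1). Stk38l, which encodes the related kinase NDR2, was below every thymus in all 7 tumors, at 3.91 to 6.56 against 6.75 to 7.55, with a difference of -0.97 (SE 0.404, adjusted p = 0.177).

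Repair and stress lists were called for few members. Parp1, which senses DNA strand breaks, was the 1 of 13 alkylation and mismatch repair genes that rose, by 0.88 (SE 0.22, adjusted p = 0.0165); its 3 other probe sets gave -0.07 to 0.52, and the call ended with the mean of all probe sets (0.3), after centring (0.0512), and without F_01 or F_02 (up to 0.0865). Of 16 immediate early genes, 1 fell: Nr4a3, an orphan nuclear receptor induced by T cell receptor signals, had levels of 8.40, 8.40, 8.80 and 8.84 in the thymi, 7.55 and 7.11 in tumors 04 and 06, and 3.98 to 4.70 in the other 5. Its difference was -3.49 (SE 0.746, adjusted p = 0.00499), and without tumors 04 and 06 5 genes of this list were lower. The adjusted p of Nr4a3 was 0.0769 with KO arrays alone. The repair list had 2 rises without tumors 04 and 06, Parp1 and Apex1. With all 7 tumors, no gene was called among 17 interferon response, 10 heat shock and 12 tumor suppressor genes.

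The mean level of the interferon response genes was 8.33 to 8.88 in the thymi, 10.37 and 10.58 in tumors 04 and 06, and 6.93 to 7.77 in the other 5. Their median difference was -0.52 with 7 tumors and -1.52 with 5, where 1 was lower, Ifit1, an interferon-induced gene of antiviral defence. Of the tumor suppressors, 2 were lower without tumors 04 and 06: Cdkn1b, which encodes the cell cycle inhibitor p27, and Lats1, a kinase of the Hippo pathway.

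Promoter sequences were searched for 3 motifs, since Notch, amino acid and MYC target genes stood among the lists. The windows were RefSeq promoters of assembly GRCm38.p6, all of 1 length around the gene start, found for 11256 tested genes, 236 of the genes that rose and 310 of those that fell, and both strands were read. The E-box CACGTG, bound by MYC with MAX among others, was in 19.5% of the promoters of genes that rose, 11.6% of those that fell and 11.04% of all. TGGGAA, the core bound by RBPJ, was in 29.2%, 30% and 26.9%. TGATGCAA, a form of the site bound by ATF4, was in 0.424%, 1.29% and 0.773%. None of these 3 motifs contains another. In the ribosome list 2 of 13 promoters held the E-box (Mybbp1a and Pes1), and in the Notch list 4 of 24 (Adam10, Lfng, Nrarp and Psen2). TGGGAA was in 6 of the 24 Notch list promoters (25%) and in 4 of the 13 ribosome list promoters, and TGATGCAA in 0 of either list. A match is a description of letters and not a bound site.

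Of the genes that rose and were named by the rule given below, Aen, Nrarp and Parp1 held an E-box upstream of their start. Genes of a chromosome that was not searched, and genes named outside the rule such as Slc2a1, were left out. The sequence around the E-box is printed on the + strand, in capitals for the motif, to show where it stands. Its first base lay at position -79 from the start of Aen (stretch chr7:78895922-78896041), -108 from that of Nrarp (chr2:25180593-25180712) and -49 from that of Parp1 (chr1:180568785-180568890).
Aen: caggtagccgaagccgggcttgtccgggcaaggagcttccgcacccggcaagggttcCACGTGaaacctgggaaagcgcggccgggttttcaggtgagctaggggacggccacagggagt
Nrarp: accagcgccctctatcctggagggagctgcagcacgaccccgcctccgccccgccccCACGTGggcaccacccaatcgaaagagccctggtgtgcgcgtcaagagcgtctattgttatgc
Parp1: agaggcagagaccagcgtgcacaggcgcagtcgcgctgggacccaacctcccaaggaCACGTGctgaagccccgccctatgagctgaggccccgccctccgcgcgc

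Markers of other cell types moved with some tumors. The 12 tested B and plasma cell markers had mean levels of 6.13 to 7.56 in the thymi, 6.04 to 7.19 in tumors 01, 02, 05 and 07, 10.41 in tumor 03, 12.71 in tumor 04 and 12.86 in tumor 06, with 0 called and a median of 2.29. Cd79a, part of the B cell receptor, was at 10.31, 13.87 and 13.49 in tumors 03, 04 and 06, and at 4.37 to 7.34 on the other KO arrays. Cr2, a complement receptor of B cells, was at 9.49, 11.27 and 11.99 there and at 3.51 to 4.24 elsewhere. Both were among the 10 genes of largest SD over the tumors, as were Srpk3, Rasgrp3, Trim7, Bank1 and H2-Ob, which were also highest in tumors 03, 04 and 06. Bpifa2, a salivary protein gene, was at 11.40 and 11.41 in tumors 04 and 06 and at 3.04 to 3.29 on every other KO array. Their part in the results above was not tested, beyond the counts without tumors 04 and 06.

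The reverse pattern, low in tumors 04 and 06, was also among the genes of largest spread. Leaving out the tumors in which a gene was low raises its difference, so the values with 5 tumors test nothing further. Gfra1, a receptor for the growth factor GDNF, was at 3.30 and 4.75 in tumors 04 and 06, at 11.03 to 12.98 in the other 5 and at 8.02 to 8.19 in the thymi, so its difference was 1.99 (adjusted p = 0.442) with 7 tumors and 4.12 (adjusted p = 0.00207) with 5. Syt13, a synaptotagmin gene, was at 3.44 and 3.92 in those tumors, 10.43 to 12.13 in the other 5 and 9.53 to 10.29 in the thymi. Pdgfrb, a growth factor receptor of pericytes, was at 11.97 to 13.41 in the 5 tumors, 4.51 and 5.90 in tumors 04 and 06 and 5.67 to 6.85 in the thymi (difference 4.28, adjusted p = 0.0942, and 6.24, adjusted p = 0.000392, without tumors 04 and 06). Fbln1, a matrix protein gene, followed the same order, with differences of 3.81 (adjusted p = 0.0809) and 5.48 (adjusted p = 0.000359). Over the 11 fibroblast and pericyte markers the mean level was 4.08 to 4.65 in the thymi and 5.36 to 8.22 in the tumors, highest in tumors 03 and 07, and 1 (Col1a2) was called, and 3 without tumors 04 and 06 (Col1a2, Pdgfrb and Fbln1); Lum was below the array median in all tumors.

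Markers of thymic epithelium were lower for 5 of 13 tested members and higher for 0 (2.65% and 2.1% over all genes). Prss16, a protease of cortical epithelium, had levels of 10.68 and 10.96 in the female thymi, 6.06 and 5.53 in the male thymi, and 3.69 to 5.81 in the tumors, a difference of -4.95 (SE 0.622, adjusted p = 1.02e-05). Tbata, a gene of thymic stroma, had 9.67 and 10.14 in the female, 6.83 and 6.85 in the male thymi and 3.85 to 4.99 in the tumors, a fall of 4.93 (SE 0.542, adjusted p = 1.16e-06). Krt8, a keratin, had 7.61 and 8.33 in the female thymi, but its male thymi, at 3.96 and 4.38, lay within the tumor range of 3.11 to 4.50. It fell by 2.88 (SE 0.646, adjusted p = 0.00787), and Psmb11, the thymoproteasome subunit, by 1.52 (SE 0.407, adjusted p = 0.0276). Ctsl, a protease of epithelium and other cells, fell by 3.35 (SE 0.751, adjusted p = 0.00793) and differed little between thymi. On these 4 arrays the female thymi were thus above the male thymi for Prss16, Tbata and Krt8. For Prss16 the male thymus at 5.53 also lay within the tumor range. The fit has 1 sex term for thymi and tumors alike, so the differences of these 3 genes do not describe the male thymi. Krt8 lost its call without F_01 or F_02 (up to 0.084), and Psmb11 without F_01, F_02 or M_01 (up to 0.139), with the ratio covariate (0.0577) and without tumors 04 and 06 (0.0539), which left 4 of the list lower. Psmb11 (0.0794), Krt8 (0.115) and Ctsl (0.152) were not called in the fit of KO arrays alone. The list's mean was 7.12 and 7.41 in the female thymi and 4.94 to 6.14 in the tumors, a range that held both male thymi (5.73 and 5.70). Foxn1 was below the array median on all 11 arrays.

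For the other lists 0 genes were called: 10 neutrophil, 14 macrophage, 8 dendritic cell and MHC class II, 9 NK and cytotoxic, 5 endothelial, 4 erythroid and 5 adipocyte markers. Mean neutrophil marker levels were 7.95 and 6.88 in tumors 04 and 06, 4.10 to 5.24 in the other 5 and 4.91 to 6.06 in the thymi. Dendritic cell and MHC class II levels were 10.74 and 10.68 in tumors 04 and 06, 6.43 to 8.22 in the other 5 and 6.97 to 8.07 in the thymi. NK and cytotoxic levels were 9.38 and 8.84 in tumors 04 and 06, at most 6.36 in the other 5 and 6.25 to 6.90 in the thymi.

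**Figure D5:**
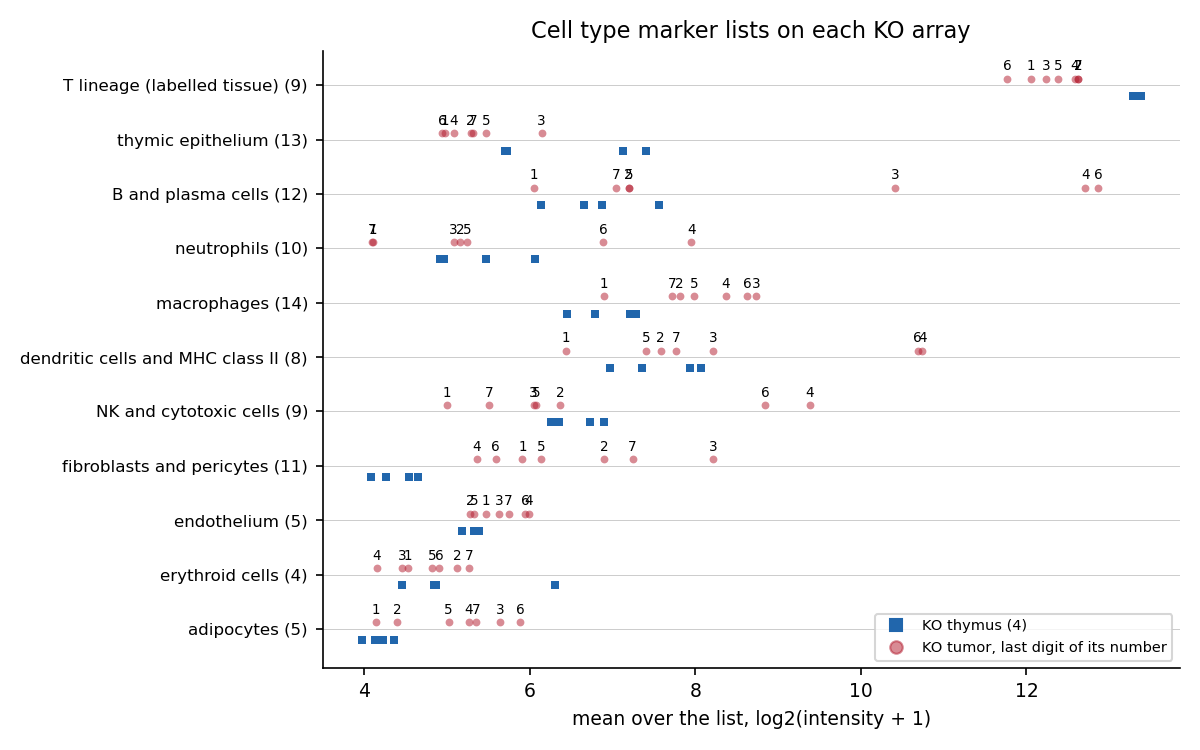
Mean level, as log2(intensity + 1), of the tested markers of each cell type (number of markers in brackets) on each KO thymus and KO tumor array. B and plasma cell markers reach 10.41, 12.71 and 12.86 in tumors 03, 04 and 06, against at most 7.56 on the other KO arrays. T lineage markers lie at 11.77 to 12.63 in the tumors and at 13.29 to 13.38 in the thymi.

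Whether the KO tumor minus thymus difference departed from that of WT (5 tumors, 4 thymi) or HT (7 tumors, 4 thymi) was tested as an interaction in the same fit. No gene passed adjusted p under 0.05 in limma against WT (0 of 14017, 119 or 0.849% at an unadjusted p under 0.05) or against HT (0, with 73 or 0.521% unadjusted). Both unadjusted shares were below the 1 in 20 that chance gives, so 0 calls do not show that the genotypes were alike. By genotype, 920 genes were called in WT (6.56%) and 491 in HT (3.5%). Of the KO calls, 468 were also called in WT, which is 70.2% of the KO list and 50.9% of the WT list, and 354 in HT, which is 53.1% of the KO list and 72.1% of the HT list. All 3 genotypes shared 300, and 145 of the KO calls were called in neither other genotype. All 667 KO calls had the same sign in WT and 665 in HT. Each genotype had tumors and thymi of its own, but the differences came from 1 fit with a shared spread and a shared sex term. The overlaps are thus not independent, and both interactions use the same KO arrays. How many of all genes had the same sign across genotypes was not counted.

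The genes with the smallest unadjusted interaction p-values often rested on few arrays. Slc15a2, a peptide transporter, differed by 7.55 between KO and WT (SE 2.51), with levels of 4.50, 4.30, 10.69 and 3.73 in the KO thymi and 9.72, 10.97 and 10.83 in tumors 02, 04 and 06 but 3.52 to 4.29 in the other 4. Ngp, a neutrophil granule gene, differed by 5.36 (SE 1.79) from WT, with tumors 04 and 06 at 11.03 and 10.33. Mpst, a sulfurtransferase gene, differed by -2.25 (SE 0.642) and Sco2, a copper chaperone of cytochrome oxidase, by 1.23 (SE 0.377). Against HT, Armc3 differed by 1.35 (SE 0.446), Usp5, a deubiquitinase, by 0.80 (SE 0.266), Zfp763 by -2.32 (SE 0.871) and Il10, an anti-inflammatory cytokine, by -2.07 (SE 0.738). None of these 8 differences passed the adjustment. Within KO, Armc3 rose by 2.84 (SE 0.326, adjusted p = 2.28e-06), Zfp763 fell by 3.52 (SE 0.637, adjusted p = 0.000984), and Usp5 rose by 0.80 (SE 0.194, adjusted p = 0.0135), a call that ended without F_02 or M_02 (up to 0.0691) after centring (0.073) and with KO arrays alone (0.207).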

How the data were processed

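RNA of 31 mouse samples was measured on Affymetrix mouse genome arrays that read the 3' ends of transcripts, and 11 of them (7 KO tumors, 4 KO thymi) make up the comparison. The deposited values were linear intensities, 1 per probe set and array, made by the authors with GCRMA per the submitters' processing notes (those notes name no version). The spread was the same on every array. No scanner files were used here, so background and saturation could not be checked per array.

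Values were turned to log2(intensity + 1). Of 45101 probe sets, 34944 named 1 gene, 932 several, 9224 none, and 1 had no value. Probe annotation gave the names, and 99.4% of single-gene probe sets matched a RefSeq table by Entrez number. Each gene was represented by its brightest probe set on average, and genes above the 25th percentile (3.61) were kept, 14017 of 18192. limma 3.58.1 in R 4.3.3 fitted all 31 arrays (6 groups, sex as covariate), with Benjamini-Hochberg adjustment over all genes and a threshold of 0.05. The fit was tested on simulated data.

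Gene lists, members and rules were chosen with earlier results of these data known. Names came from a rule: Stk38, Stk38l and Bcl2l11; the 15 largest rises and falls without overlap; up to 4 called and 2 uncalled members of each list; 5 genes per direction of each interaction; and the 10 genes of largest SD over KO tumors. The text gives those that a result turns on. Named outside it, after values were seen, were Baiap3, Dgke, Rmnd5a, Mier1, Slc35d1, Leprot, Pde4b, Sgip1, Cd8a, Rag1, Hes1, Heyl, Slc2a1, Psmb11, Chl1, Igf2bp3, Macrod2, Gimap6, Ms4a6b, Ifit1, Cdkn1b, Lats1, Phlda3, Cd5, Cd3e, Cd3g, Hoxa9, Erg and Apex1. Alternatives included other sample sets, filters, pseudocounts, probe sets and covariates, and 1 array left out at a time.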

Additional observations from a re-analysis of the deposited data

Results flagged for a closer look

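In groups of 4 or 7 arrays, 1 array stood apart from the others by Dixon's criterion in 16 of 344 groups tested (4.65%), close to the 1 in 20 that chance gives, so no pattern is read from them. Values are levels, as log2(intensity + 1).

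Tumor 05 stood apart 4 times: the mean over the amino acid stress and serine synthesis list was 10.2 there against 7.78 to 8.80 in the other tumors, Slc7a11 was 7.55 against 3.53 to 4.51, Insl5 was 5.81 against 2.86 to 3.79, and Dgkeos was 5.07 against 3.41 to 3.90. Tumor 03 was apart for Rrp12 (9.34 against 7.19 to 8.06), Tbata (4.99 against 3.85 to 4.34) and Pbx3 (6.88 against 8.58 to 9.86). In tumor 01, Bex1 was 5.61 against 3.20 to 4.05, Tox3 was 4.53 against 3.22 to 3.71, and Slc2a3 was 13.07 against 11.11 to 11.75. Tumor 02, the male tumor, had Mpst at 6.53 against 4.15 to 5.17.

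Among the thymi, Slc15a2 in M_01 was the widest gap, at 10.69 against 3.73 to 4.50 in the other 3. The remaining gaps were small in size: Cyb561 was 3.43 in M_02 against 3.82 to 3.86, Bcl2l11 was 12.16 in F_02 against 11.92 to 11.95, Il10 was 3.45 in F_02 against 3.16 to 3.19, and Gfra1 was 8.19 in F_01 against 8.02 to 8.04.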

How the results depend on the processing

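The count of genes called between KO tumors and KO thymi (667, 295 higher and 372 lower) depended on the samples and the error model more than on the filters. It was 204 (80 higher, 124 lower) with KO arrays alone, 90 (22, 68) with female arrays only, 2969 (1528, 1441) with array weights per tissue, and 1098 (581 higher) without tumors 04 and 06. Centring the arrays gave 667 lower. Leaving out 1 KO array at a time gave 294 to 908 calls, 112 to 374 higher and 182 to 534 lower; without thymus F_01, F_02, M_01 or M_02 the totals were 328, 294, 428 and 420. Other filters, pseudocounts, probe set rules and covariates kept it within 1.5 times. Those counts used fewer arrays or another error model, and the cause was not tested further. The interactions with WT and HT stayed at 0 calls in every setting run, including the replicate block (0 and 0), since array numbers are shared across genotypes; the labels tie no number to an animal. No paired analysis was possible for KO tumors against KO thymi because the 2 groups share no replicate numbers. The 3'/5' difference was 1.21 with actin alone (exact p = 0.0424) and 0.765 to 1.26 with 1 array left out, passing the threshold in 1 such case, without tumor 05 (exact p = 0.0333).

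Of the 138 genes traced across settings, 77 were called and 0 of these changed sign. Of the 77, 73 were called without tumors 04 and 06 and 50 in every fit that left out 1 array; 27 lost the call at least once, 14 of them only when a thymus was left out. KO arrays alone ended 35 of the 77 calls, female arrays only 53, the control-probe ratio in the model 12, the mean of all probe sets 6 and centring 5. Genes without a call that changed sign did so as follows. With the control-probe ratio in the model: Adam10 0.022, Bcl2l11 -0.17, Cd24a 0.073, Pgk1 0.25 and Ptcra 0.19. With the mean of all probe sets: Bcl2l11 -0.88, Ccng1 -0.42, Npm1 -0.028, Pgk1 0.22 and Ptprc 0.083. After centring: Bcl2l11 -0.16, Ldha -0.0090, Ncl -0.18 and Npm1 -0.13. Without tumors 04 and 06: Bpifa2 -0.052, H2-Ob -0.45, Mcm7 0.038, Mki67 0.024, Ngp -0.67, Pgk1 0.12, Ptcra 1.25, Slc15a2 -0.92 and Syt13 1.58. Without the sex covariate: Ncl -0.023, Npm1 -0.0087 and Stk38 0.17. With female arrays only: Ldha -0.034, Ncl -0.25 and Stk38 0.30. With array weights: Ncl -0.070 and Stk38 0.039. With KO arrays alone: Bcl2l11 -0.0046. With 1 array left out, differences ran from -0.14 to 0.21 for Bcl2l11, -0.00073 to 0.27 for Ldha, -0.14 to 0.11 for Ncl, -0.027 to 0.14 for Npm1, -0.23 to 0.049 for Pgk1, -0.90 to 0.38 for Ptcra, -0.45 to 2.22 for Slc15a2, -0.41 to 0.37 for Stk38 and -1.14 to 0.43 for Syt13. The cause of these changes was not tested. Arrays give no count, so their number and the dim end of the signal limit precision.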
